A study of Mus musculus with 15 samples.

Results

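Striatal cells of mice treated with haloperidol were compared with those of mice treated with olanzapine, class by class. The members are the deposited cells whose recorded drug is haloperidol (1480 cells) or olanzapine (2354 cells), 3834 of 5581 cells in all, from 10 of 15 mice. For each mouse and each of the 7 deposited cell classes the raw counts of unique molecular identifiers (UMIs, tags that each mark 1 captured RNA molecule) were summed, and a sum was used where it held 10 or more cells. All mice were male C57BL/6J, an inbred strain, bought at 8 weeks of age and left to habituate for about 1 week. The 5 haloperidol mice carried the drug in implanted pellets and the 5 olanzapine mice took theirs in food, both for 28 to 29 days. Drug and route of delivery cannot be told apart, and no source used here states the doses. The labels name no genetic change in any group. A further 5 placebo mice, whose route no source used here states, were not a side of the comparison. They entered the filter on low counts, the scaling and the estimate of the spread between animals. Each mouse was 1 animal and 1 library, made from dissociated striatal slices that were passed through a dead cell removal kit, and the mouse is the replicate throughout.

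Haloperidol is a first-generation antipsychotic that blocks dopamine D2 receptors strongly. Olanzapine is a second-generation antipsychotic that binds D2 receptors together with serotonin, histamine and muscarinic acetylcholine receptors. The striatum receives dense dopamine input, and most of its neurons are GABAergic projection neurons of the direct pathway, which carry D1 receptors (Drd1) with the peptides substance P and dynorphin (Tac1, Pdyn), or of the indirect pathway, which carry D2 receptors (Drd2) with enkephalin and an adenosine receptor (Penk, Adora2a). Blocking D2 receptors is known to raise cAMP signalling in indirect-pathway neurons and to induce immediate early genes there, which are transcription factors and synaptic regulators that respond to activity within minutes.

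No gene passed the test between the drugs in any class. A group of genes whose estimates lay on 1 side of 0 across several classes, without passing, encodes protein-folding chaperones, with Hspa5, Calr, Pdia6 and Hsp90b1 in the endoplasmic reticulum. Their promoters are shown because of the sign of their log2 differences (haloperidol minus olanzapine). All 4 were above 0 in neurons, at 0.18 ± 0.30 (SE), 0.23 ± 0.24, 0.13 ± 0.29 and 0.57 ± 0.28 in that order. All were below 0 in microglia, neuroblasts, the vascular class and both oligodendrocyte-lineage classes (20 of 20 estimates). Several were smaller than their SE, such as Pdia6 in the vascular class (-0.035 ± 0.289) and Hsp90b1 in neuroblasts (-0.068 ± 0.305). In astrocytes the 4 genes were at -0.349 ± 0.399, -0.338 ± 0.251, -0.07 ± 0.275 and -0.004 ± 0.262. The classes come from the same mice, so their estimates are not independent. The 4 genes were chosen after their values had been seen, so these directions follow from the choice and are a description. Other genes of the endoplasmic reticulum did not share them: Canx was at 0.003, 0.05 and 0.25 in microglia, neuroblasts and the vascular class, Pdia3 at 0.24 and Dnajb11 at 0.18 in microglia, and Manf at 0.11 in neuroblasts. Whether the direction differed between neurons and those classes was not tested. Each line gives the 250 bases before the gene's start, 5′ to 3′ on the gene's strand, from RefSeq's table on GRCm38.p6, the same assembly as mm10: Hspa5 at chr2:34771840-34772089 on the plus strand, Calr at chr8:84846932-84847181 on the minus strand, Pdia6 at chr12:17266339-17266588 on the plus strand and Hsp90b1 at chr10:86705445-86705694 on the minus strand. Capitals mark the endoplasmic reticulum stress response element (CCAAT, then 9 bases of any kind, then CCACG, on either strand) and, in Calr alone, 1 E-box (CACGTG).
Hspa5: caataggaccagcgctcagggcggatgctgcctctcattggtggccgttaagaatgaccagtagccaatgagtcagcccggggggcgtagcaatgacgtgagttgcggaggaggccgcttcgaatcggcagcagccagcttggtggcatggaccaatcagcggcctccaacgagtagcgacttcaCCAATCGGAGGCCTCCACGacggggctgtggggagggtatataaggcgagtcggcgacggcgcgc
Calr: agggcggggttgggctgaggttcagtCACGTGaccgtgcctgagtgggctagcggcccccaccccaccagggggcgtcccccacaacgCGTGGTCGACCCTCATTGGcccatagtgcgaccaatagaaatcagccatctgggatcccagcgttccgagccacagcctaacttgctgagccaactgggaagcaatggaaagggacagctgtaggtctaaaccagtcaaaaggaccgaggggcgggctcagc
Pdia6: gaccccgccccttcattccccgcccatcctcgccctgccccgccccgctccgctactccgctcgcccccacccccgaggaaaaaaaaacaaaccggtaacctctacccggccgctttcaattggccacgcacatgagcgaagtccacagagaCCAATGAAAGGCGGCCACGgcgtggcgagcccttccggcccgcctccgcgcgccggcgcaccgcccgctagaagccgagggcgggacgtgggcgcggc
Hsp90b1: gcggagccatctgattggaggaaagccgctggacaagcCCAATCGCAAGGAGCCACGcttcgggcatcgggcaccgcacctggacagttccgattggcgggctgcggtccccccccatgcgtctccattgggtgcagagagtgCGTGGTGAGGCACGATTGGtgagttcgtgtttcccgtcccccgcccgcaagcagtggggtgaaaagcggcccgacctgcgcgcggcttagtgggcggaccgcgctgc
The stress response element, which was added to the search after the values of these genes had been seen, lay in all 4 windows and in 37 of the 32536 different promoter windows of that length in the table (0.1137%). Genes and element were both picked, and the element is named for the stress response of the organelle in which these genes act. Its presence in all 4 windows is therefore no test of enrichment over that share. The element began 65 bases before the start in Hspa5, 162 in Calr, 98 in Pdia6 and 212 and 107 in Hsp90b1. The E-box was in 6.036% of windows, and none of the 4 held a match to the cAMP response element (TGACGTCA, in 1.555% of windows), to the serum response element (1.478%) or to TATAAA (12.31%). The windows of Egr4 and Junb, immediate early genes described with the neurons, held none of these 5 motifs. A match describes the letters of the window and not a bound factor.

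The drug mice gave 80 to 1189 cells and 241677 to 4329163 UMIs each, and a median of 2855 UMIs per cell over all their cells. The median per mouse was 2696 ± 279 (SD, n = 5) with haloperidol and 2975 ± 309.6 (n = 5) with olanzapine (exact permutation test, two-sided p = 0.127). The mitochondrial share, as a median per mouse, was 3.19% ± 0.833 and 2.91% ± 0.492 (exact permutation p = 0.587). The deposited class labels were checked against markers. The class labelled olig precursor held the myelin genes Mbp (a mean over drug mice of 8581 CPM, the counts of a gene for every 1000000 UMIs of the sum) and Mog (2457 CPM) with Pdgfra at 0.664 CPM, whereas the class labelled oligodendrocyte held the precursor genes Pdgfra (931 CPM) and C1ql1 (950.3 CPM) with Mbp at 346.9 CPM. These labels run against their markers, so the classes are called here the myelin-gene class (labelled olig precursor) and the precursor-gene class (labelled oligodendrocyte). The class labelled other held endothelial, mural and smooth muscle genes such as Cldn5 (3369 CPM), Vtn (4941 CPM) and Acta2 (2284 CPM) and is called the vascular class. Microglia, astrocytes, neuroblasts and neurons carried P2ry12 (2865 CPM), Aldoc (3895 CPM), Dcx (497.2 CPM) and Penk (4151 CPM), as their labels say. Marker levels, single or summed, are on this scale. The CPM of tested genes given later are over the genes that passed the filter, after scaling, and differ from it. The library labelled olanzapine 3 stood apart in hemoglobin genes, with a summed 29640 CPM in neurons and 9766 CPM in astrocytes against at most 23.32 CPM in any class of another drug mouse. In placebo 5, 211 of 514 cells (41.051%) shared their barcode with a cell of placebo 2 or 3, whereas only 6 barcodes were shared between drug mice. Placebo 5 touches the drug comparison through the filter on low counts, the scaling and the shared estimate of spread. Leaving placebo 5 out gave the same count of 0 genes in all 7 classes.

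Across the 7 classes, 22924 tests compared haloperidol with olanzapine and edgeR's quasi-likelihood test called none at an adjusted p under 0.05, so percent called was 0 in each class. DESeq2 also called none. The count at an unadjusted p under 0.05 was 910, where 1146 would be met by that threshold alone. By class this was 3.16% of 4554 genes in astrocytes, 5.54% of 3086 in microglia, 2.46% of 2238 in neuroblasts, 3.49% of 4445 in neurons, 6.03% of 2372 in the myelin-gene class, 3.64% of 3485 in the precursor-gene class and 4.19% of 2744 in the vascular class. Genes whose haloperidol and olanzapine mice did not overlap made up 0.637%, 3.86%, 1.25%, 0.81%, 6.03%, 4.22% and 2.51% of those tested, in the same order. The classes with more such genes entered fewer mice: 3 haloperidol and 5 olanzapine mice in microglia, 3 and 4 in the myelin-gene class and 4 and 3 in the precursor-gene class, against 5 and 5 in astrocytes and neurons. For 15477 of the 22924 tests (67.51%) the 95% interval of the difference lay within 2-fold in either direction. That share was 81.95% in neuroblasts, 78.7% in neurons and 77.78% in astrocytes, but 49.83% in the myelin-gene class and 50.16% in the precursor-gene class. Single genes and lists described from here on are therefore estimates with intervals, and none of them passed the test. A range given with the median of a list is over the alternative analyses, which leave out each mouse in turn or change the cells, filter, scaling or tool.

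No class passed the exact test for its share of cells, and the mice of both drugs overlapped in each. Microglia, the resident immune cells of the brain, made up 11.64% ± 5.486 (SD, n = 5) of the cells of haloperidol mice and 18.26% ± 6.29 (n = 5) of olanzapine mice, with ranges of 5.556 to 20.35% and 10.31 to 25.0% (exact two-sided permutation p = 0.111, 0.583 after Benjamini-Hochberg adjustment over 7 classes, smallest p possible 0.00794). That difference of -6.629 percentage points was larger than the SD of either group, and it was -2.584 without the 4 mice numbered 1 to 4. Astrocytes made up 29.76% ± 3.619 and 24.97% ± 8.939 (adjusted exact p = 0.583), and neurons 19.87% ± 6.701 and 22.11% ± 7.454 (adjusted exact p = 0.815). The precursor-gene class took 8.457% ± 1.327 and 6.918% ± 1.898 of cells, and the vascular class 10.04% ± 2.177 and 8.769% ± 1.141 (adjusted exact p = 0.583 for both). Neuroblasts took 13.21% and 11.91%, and the myelin-gene class 7.02% and 7.056%. The plot of class shares shows the 2 drugs interleaved in every class.

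**Figure D1:**
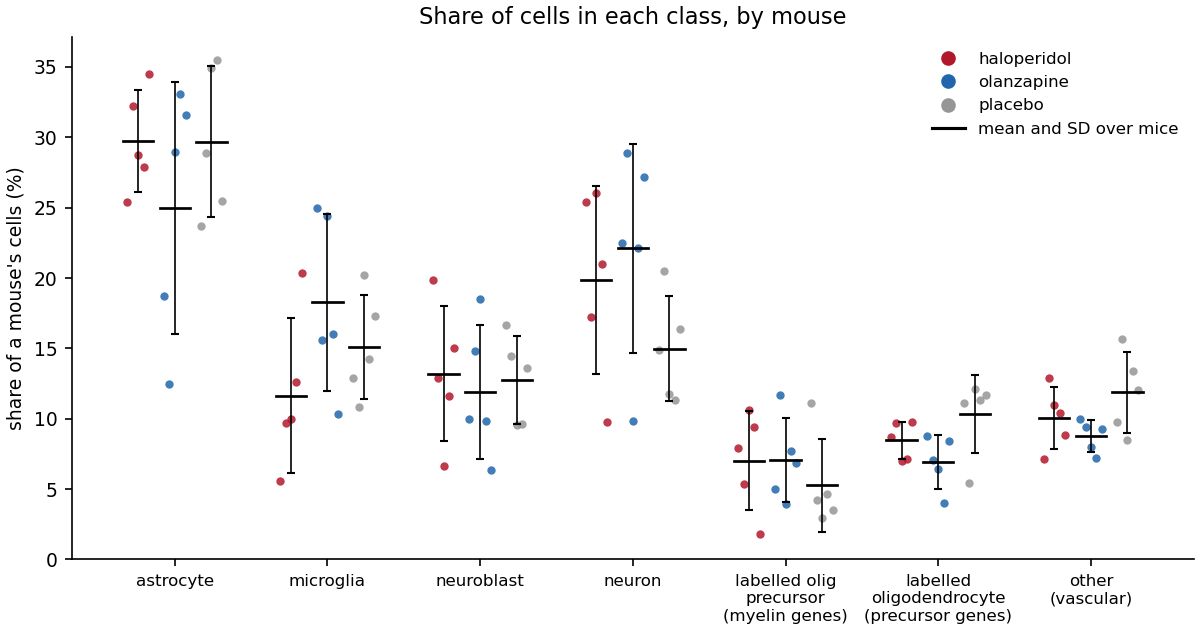
Share of each mouse's cells (percent) in the 7 deposited classes, with 1 point per mouse for haloperidol, olanzapine and placebo and bars for the mean and SD over mice. Haloperidol and olanzapine mice overlapped in all 7 classes, microglia included (5.556 to 20.35% against 10.31 to 25.0%).

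In neurons, receptors of the families that the drugs bind were compared first. The list was set by family, and the affinity of either drug for each receptor was not used. Drd2, the D2 receptor that both drugs block, measured 144, 225.2, 163.5, 156.1 and 243.3 CPM in the haloperidol mice and 212, 190.8, 71.22, 119.2 and 113.7 CPM in the olanzapine mice. The groups overlapped, with 2 olanzapine mice at the level of the haloperidol mice and 3 below all of them. The log2 difference, haloperidol minus olanzapine, was 0.49 ± 0.27 (SE; 95% interval -0.07 to 1.04; edgeR adjusted p = 0.994), and the placebo mean was 136.6 CPM. Drd1, the D1 receptor, averaged 215.1 ± 97.83 CPM (SD, n = 5) and 173 ± 90.24 CPM (n = 5), a log2 difference of 0.31 ± 0.30. The histamine receptor Hrh3 had a log2 difference of 0.24 ± 0.30. The serotonin receptor Htr1b and the muscarinic receptor Chrm1 were at 0.18 and 0.20, and the serotonin receptor Htr2c, a target of olanzapine, was the single member below 0 at -0.17 ± 0.29. Without haloperidol 3, Htr1b turned to -0.19 and Chrm1 to -0.05. Of the 30 receptors listed, 7 passed the filter on low counts in neurons. Their log2 differences had a median of 0.24, beside 0.01 over all 4445 genes, of which 2306 were above 0. The median ranged from 0.06 without haloperidol 3 to 0.42 with a minimum of 20 cells. It was 0.08 without cells called as doublets, 0.13 without olanzapine 3 or 4, and 0.42 without haloperidol 2 or olanzapine 5.

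**Figure D2:**
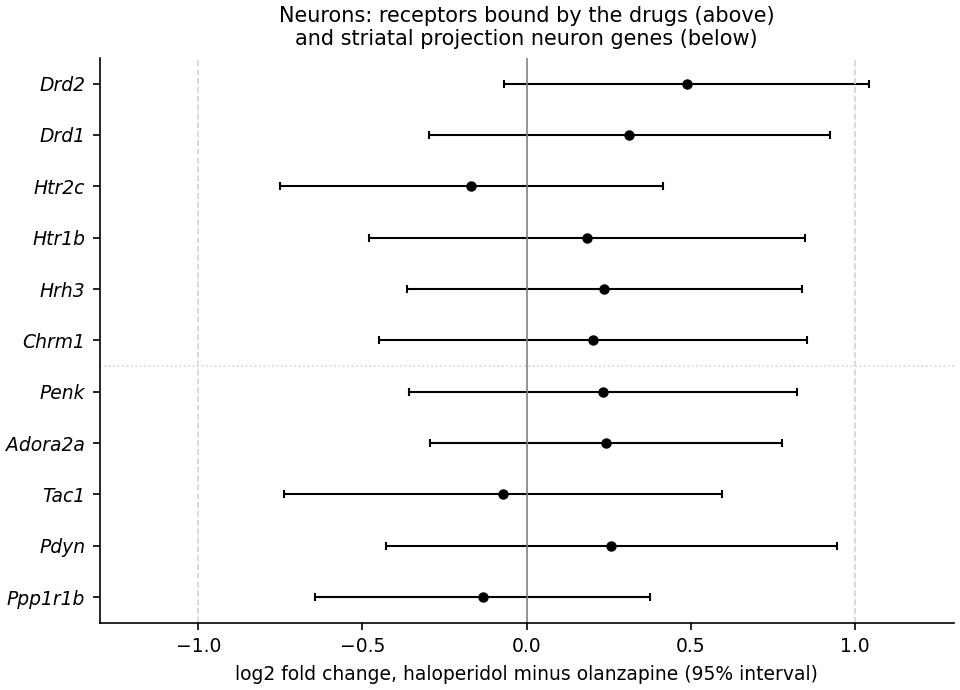
Log2 fold change in neurons, haloperidol minus olanzapine, with its 95% interval, for 6 tested receptors of the families that the drugs bind (above the dotted line) and 5 striatal genes (below it), with dashed lines at a change of 1 either way. Every interval spans 0, and that of Drd2 reaches from -0.07 to 1.04.

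Marker genes of the striatal pathways had estimates on both sides of 0, all with intervals that span it. Penk averaged 5126 ± 849.1 CPM (SD, n = 5) in haloperidol and 4371 ± 1638 CPM (n = 5) in olanzapine mice, a log2 difference of 0.23 (95% interval -0.36 to 0.82) that turned to -0.06 without cells called as doublets. Tac1 averaged 2481 ± 1449 and 2621 ± 598.2 CPM (log2 difference -0.07, 95% interval -0.74 to 0.59). Pdyn was at 0.26 ± 0.34, Adora2a at 0.24 ± 0.26, and Ppp1r1b, which encodes the dopamine-regulated phosphoprotein DARPP-32, at -0.13 ± 0.25. Without cells called as doublets Adora2a turned to -0.12 and Ppp1r1b to 0.09, and Tac1 changed sign in 5 of 25 alternatives. Of the 29 dopamine signalling and peptide genes tested, 18 were above 0 and 11 below, with a median of 0.09 (0.005 to 0.12). The upper limits of the intervals were 1.04 for Drd2 and 0.82 for Penk, so true differences up to those sizes remained possible with these mice.

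Immediate early genes were the neuronal list with the most one-sided estimates. Egr4, a zinc-finger transcription factor at chr6:85511121-85513589 (mm10), measured 76.82, 51.18, 102.4, 37.32 and 77.4 CPM in haloperidol mice and 600.7, 87.67, 224.6, 282.7 and 82.31 CPM in olanzapine mice. Olanzapine 1, 3 and 4 lay above every haloperidol mouse, and olanzapine 2 and 5 lay among them. The log2 difference was -1.61 ± 0.52 (95% interval -2.70 to -0.51; adjusted p = 0.994), and the placebo mean was 98.8 CPM. Without a filter on low counts Egr4 passed at an edgeR adjusted p of 0.00119, although its log2 difference hardly moved (-1.58). Slc17a7, which the filter had removed, passed in that fit at the same adjusted p, so the call depends on the filter. Junb, a subunit of the AP-1 transcription factor, had 220.8, 378.8, 208.1, 203.6 and 254.3 CPM with haloperidol and 477, 319.8, 402.6, 559.9 and 157.2 CPM with olanzapine (-0.60 ± 0.30). Egr1, Arc and Homer1, a transcription factor and 2 synaptic regulators, had log2 differences of -0.48 ± 0.30, -0.38 ± 0.42 and -0.44 ± 0.26. Jun was at -0.84 ± 0.49, Nr4a1 at -0.87 ± 0.88, Ier5 at -0.37 ± 0.30 and Jund at -0.04 ± 0.77. All 9 tested members of the 21 listed were thus below 0 (median -0.48), and the median kept its sign in 25 of 25 alternative analyses (-0.72 to -0.35), while Jund changed sign in 6 of them.

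The pattern followed individual olanzapine mice. Olanzapine 1 and 4 were above every haloperidol mouse at 7 of the 9 genes and olanzapine 3 at 6, but olanzapine 5 at 1 and olanzapine 2 at 0. The same count over all neuronal genes was not made, so these counts have no share over all genes beside them. Olanzapine 1 held only 18 neurons, with a median mitochondrial share of 8.689%, the highest among neurons of the drug mice. Of the olanzapine mice, olanzapine 3 carried the hemoglobin genes and also the highest summed microglial markers in neurons (582.5 CPM, with 187.9 CPM in olanzapine 1 and 35.37 to 54.62 CPM in the other 8 drug mice). The part of these transcripts in the immediate early genes was not tested. Neurons of olanzapine 2 and haloperidol 2 held few interneuron markers (162.2 and 933.6 CPM in sum) beside 4293 to 15760 CPM in the other drug mice. Rgs2, which limits G protein signalling and is itself activity-regulated, had a log2 difference of -0.69 ± 0.30 in neurons, and 6 of 8 tested regulators of this family were below 0 (median -0.18, -0.28 to -0.03).

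**Figure D3:**
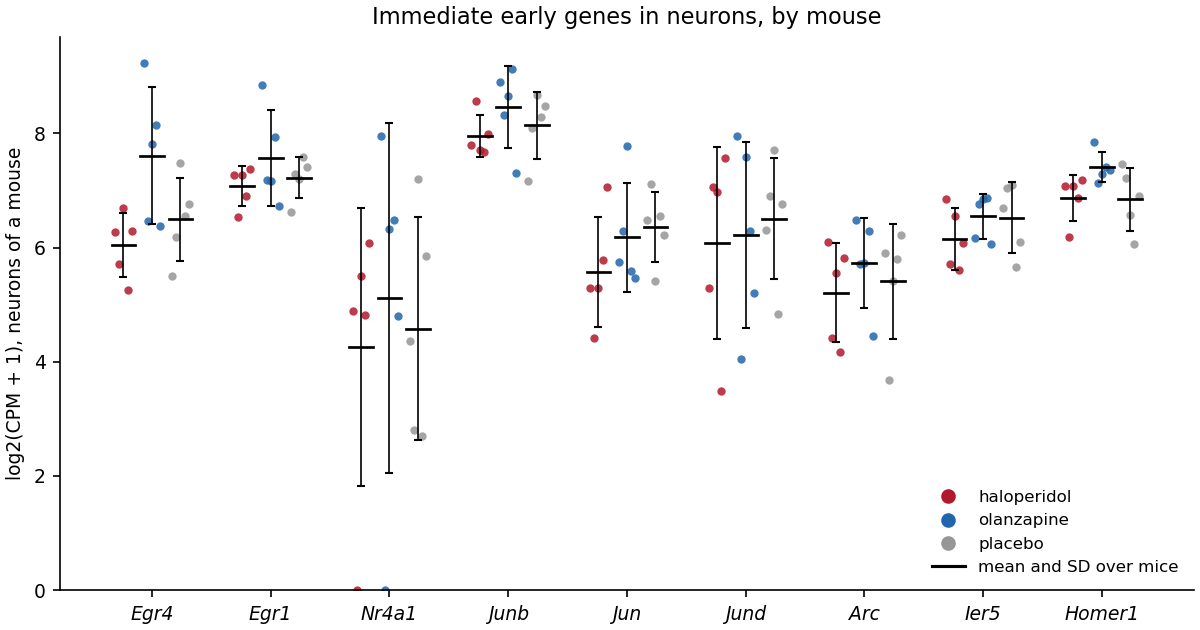
Log2(CPM + 1) in neurons of the 9 tested immediate early genes, 1 point per mouse by treatment with bars for the mean and SD over mice. Olanzapine mice spread widely at Egr4 (82.31 to 600.7 CPM) while haloperidol mice stayed between 37.32 and 102.4 CPM.

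The other neuronal lists leaned in both directions. Of 12 tested genes of cholesterol and fatty acid synthesis, 11 were above 0 (median 0.30, 0.11 to 0.41), among them Scd2, a fatty acid desaturase (0.46 ± 0.23), Sc5d, a late enzyme of cholesterol synthesis (0.56 ± 0.29), and Insig1, which restrains the pathway (0.69 ± 0.35). Of 17 tested genes of the unfolded protein response 16 were above 0 (median 0.25), but the median was -0.005 without the cells called as doublets. Hsp90b1, the endoplasmic reticulum member of the HSP90 family, measured 1075, 1218, 564.9, 502.2 and 420.2 CPM with haloperidol and 706.7, 526, 449.2, 471.2 and 417.6 CPM with olanzapine. Its log2 difference of 0.57 ± 0.28 rested on haloperidol 1 and 2, the others lying within the olanzapine range. Creld2, Dnajb9 and Herpud1, further stress response genes, were at 0.56 ± 0.29, 0.46 ± 0.27 and 0.41 ± 0.25. GABA genes were split 9 above and 5 below 0 (median 0.18, 0.06 to 0.28), with the receptor subunit Gabrd at 0.35. Glutamate receptor and scaffold genes were split 8 and 10 with a median of -0.02, and Gria1 was at -0.30 ± 0.25. Synaptic vesicle genes were split 12 and 11, with Sv2b at 0.68 ± 0.30. Estimates leaned below 0 for 23 of 32 proteasome subunits (median -0.17) and for 9 of 11 oxidative stress genes (-0.05), as they did for the ribosomal proteins of neurons given with the other classes.

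The neuronal genes with the smallest p were not receptors. Bag4, a co-chaperone that silences death receptors, at chr8:25764538-25785209, measured 9.602, 40.95, 28.08, 27.14 and 22.11 CPM with haloperidol and 70.67, 92.83, 73.96, 44.35 and 56.87 CPM with olanzapine, so all haloperidol mice were below all olanzapine mice (-1.28 ± 0.36, 95% interval -2.01 to -0.55). Non-overlap of that kind occurred for 0.81% of neuronal genes. Atp2c1, a Golgi calcium and manganese pump, had 162.9 to 355.3 CPM with haloperidol and 82.52 to 140.7 CPM with olanzapine, again without overlap (0.84 ± 0.25). Gtpbp6, which is named as a GTP-binding protein, was at 1.12 ± 0.32, and Zdbf2, an imprinted gene, at -1.11 ± 0.35, with overlapping mice. The adjusted p was 0.994 for all 4.

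Protein-folding chaperones had estimates on the same side of 0 in many classes. The classes come from the same mice and libraries, so their estimates are not independent. Such a lean was not particular to chaperones, as the median of the proteasome subunits was also below 0 in all 7 classes. Hspa8, the constitutive cytosolic HSP70, and Hsp90ab1, the constitutive cytosolic HSP90, were below 0 in all 7 classes, and Hspa5, the HSP70 of the endoplasmic reticulum, in 6 of 7, with neurons at 0.18 ± 0.30. These 3 genes were singled out across classes after their values had been seen. In neuroblasts, where Hspa5 had the smallest p of any gene, it measured 229.3, 276.7, 118.3, 147.8 and 104.6 CPM with haloperidol and 349.3, 418.1, 375.7 and 207.6 CPM in olanzapine 2 to 5. Only olanzapine 5 lay among the haloperidol mice (-1.13 ± 0.29, 95% interval -1.73 to -0.53; adjusted p = 0.999). The placebo mean in neuroblasts was 221.6 CPM, closer to the haloperidol mean of 175.3 than to the olanzapine mean of 337.7 CPM. The place of placebo differed between classes, as given with the chaperone lists. In the myelin-gene class, Hspa5 measured 216.5, 121.5 and 187.6 CPM with haloperidol and 393.9, 438.4, 330.8 and 215.8 CPM with olanzapine (-1.08 ± 0.34). In the precursor-gene class it measured 459.2, 588, 821.8 and 197.1 CPM against 1313, 1074 and 530.4 CPM (-0.87 ± 0.41). Hspa5 in microglia, astrocytes and the vascular class was at -0.58 ± 0.28, -0.35 ± 0.40 and -0.26 ± 0.28.

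Hspa8 was below 0 in every class. Olanzapine mice ranked in the same order for Hspa8 and Hspa5 in the myelin-gene, precursor-gene and vascular classes. In the other classes their order differed between the genes. In neuroblasts it measured 2006, 2456, 2409, 2578 and 2092 CPM with haloperidol and 3726, 3757, 3428 and 2303 CPM with olanzapine (-0.52 ± 0.16), and in microglia 1239, 1381 and 885.9 CPM against 2000, 2207, 2181, 1504 and 1222 CPM (-0.64 ± 0.21). In the myelin-gene class the haloperidol mice lay close together at 920, 869.6 and 882.3 CPM, with olanzapine mice at 2823, 2941, 1711 and 492.1 CPM. Olanzapine 5 was there the lowest of all 7 mice. The estimate was -1.15 ± 0.53 (adjusted p = 0.791), and without olanzapine 5 it was -1.47 at an adjusted p of 0.0155, when Hspa8 was the only gene called in that class. Olanzapine 5 was the lowest olanzapine mouse for Hspa5 in 7 of 7 classes and for Hspa8 and Hsp90ab1 in 5 each. In astrocytes the Hspa8 estimate of -0.23 turned to 0.04 without olanzapine 3.

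**Figure D4:**
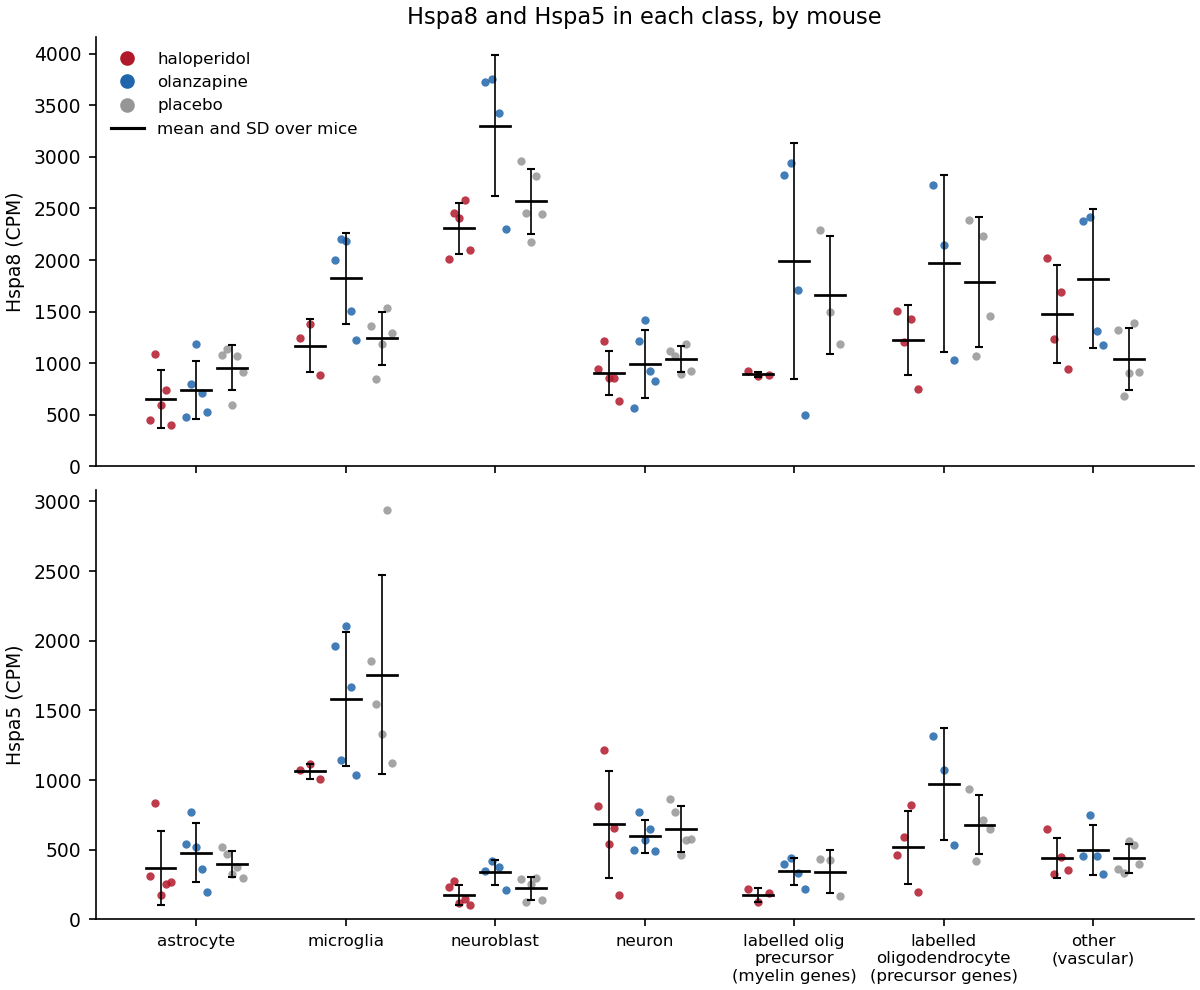
CPM of Hspa8 (top) and Hspa5 (bottom) in each class, 1 point per mouse by treatment with bars for the mean and SD over mice, for mice with 10 or more cells of the class. In the myelin-gene class the 3 haloperidol mice lie between 869.6 and 920 CPM of Hspa8, with olanzapine mice from 492.1 to 2941 CPM.

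Cytosolic chaperones leaned below 0 in most classes, and unfolded protein response genes did so most in the 2 oligodendrocyte-lineage classes. Of the cytosolic heat shock genes tested, 12 of 14 were below 0 in the precursor-gene class (median -0.27), 8 of 10 in the myelin-gene class (-0.55, but -0.27 without haloperidol 3, -0.25 without haloperidol 4 and -0.34 without placebo 1), 10 of 13 in microglia (-0.28), 9 of 10 in neuroblasts (-0.18, -0.32 to -0.11) and 11 of 12 in the vascular class (-0.40, -0.61 without olanzapine 5). In neurons 7 of 13 were below 0, and in astrocytes 9 of 12 with a median of -0.06 that changed sign without haloperidol 5 or olanzapine 3. All 16 tested unfolded protein response genes were below 0 in the precursor-gene class (median -0.37, -0.46 to -0.22 over 24 alternatives) and 12 of 14 in the myelin-gene class (-0.43, but -0.10 without olanzapine 3 and -0.18 with a minimum of 5 cells), beside 1790 of 3485 and 1112 of 2372 genes above 0 in all. Elsewhere the list leaned less, with 9 of 17 below 0 in microglia (median -0.01), 11 of 16 in astrocytes (-0.06), 5 of 8 in neuroblasts (-0.17) and 9 of 13 in the vascular class (-0.07). In the precursor-gene class Xbp1, the transcription factor that drives this response, measured 164, 155.7, 258.7 and 98.55 CPM with haloperidol and 303.7, 348.4 and 242 CPM with olanzapine (-0.75 ± 0.31), and Pdia6 and Calr were at -0.57 ± 0.26 and -0.56 ± 0.29. In the myelin-gene class Pdia6, a disulfide isomerase, was lower in every haloperidol mouse (0, 92.3 and 76.42 CPM against 103.6 to 207.9 CPM, a log2 difference of -1.03 ± 0.42). Non-overlap of that kind met 6.03% of genes in the class, and the value of 0 came from haloperidol 1, with 10 cells. Pdia4 was at -0.79 ± 0.38. By mouse, the mean log2 CPM of unfolded protein response genes had medians of 7.021 with haloperidol, 7.419 with olanzapine and 7.424 with placebo in the myelin-gene class. In the precursor-gene class these were 8.097, 8.462 and 8.211. For cytosolic heat shock genes, in the same order, they were 8.383, 8.934 and 8.706 in the myelin-gene class and 7.998, 8.116 and 8.265 in the precursor-gene class. They were 8.768, 8.99 and 8.733 in neuroblasts and 7.468, 7.602 and 7.38 in microglia.

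Microglia of haloperidol mice had lower estimates for surveillance genes and higher ones for ribosomal proteins. Rgs2 measured 404.2, 649.4 and 546.2 CPM in haloperidol 3, 4 and 5 and 1259, 696.1, 1017, 666.5 and 806.2 CPM in the olanzapine mice. All 3 haloperidol mice were below all 5 olanzapine mice, as was one or the other order for 3.86% of microglial genes (-0.73 ± 0.22, 95% interval -1.17 to -0.30; adjusted p = 0.814). Tlr2, a receptor for bacterial lipoproteins, measured 36.74, 44.78 and 33.3 CPM against 129.6, 103.7, 98.85, 75.17 and 43.41 CPM (-1.18 ± 0.37), with only olanzapine 5 within the haloperidol range. Nfkbia, an inhibitor and target of NF-κB, had 1228, 1642 and 1112 CPM against 1513 to 2384 CPM (-0.64 ± 0.20). Of 15 homeostatic microglial genes 13 were below 0 (median -0.22, -0.14 without haloperidol 3), led by P2ry13, a purine receptor (-0.54 ± 0.21), Slc2a5, a fructose transporter (-0.64 ± 0.27), Csf1r, the survival receptor of microglia (-0.38 ± 0.20), and Selplg (-0.29 ± 0.17). The activation and cytokine list was split 10 above and 7 below 0, and 2 chemokines lay on opposite sides, Ccl12 at 0.80 ± 0.31 and Ccl2 at -1.12 ± 0.45. Summed markers of microglia in this class spanned 44640 to 51750 CPM with haloperidol and 43710 to 57430 CPM with olanzapine. The 4 border macrophage markers in the table, of 8 listed, summed to 468 to 902.8 CPM with haloperidol, 318.3 to 456.8 CPM with olanzapine and 426 to 1105 CPM with placebo, so the drugs did not overlap. Markers of newly formed oligodendrocytes were at 75.72 to 120.3 CPM with haloperidol and 133.7 to 211.4 CPM with olanzapine, again without overlap. The part of these transcripts in the lower homeostatic genes was not tested. The other marker sets summed in microglia overlapped between the drugs.

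On the higher side in microglia were Ube2n, a ubiquitin-conjugating enzyme, at 189, 223.9 and 186.5 CPM against 74.07 to 148.1 CPM (0.81 ± 0.23), Ppp1r14b, a phosphatase inhibitor (1.22 ± 0.36), and Bola2, which acts in iron-sulfur handling (1.01 ± 0.31). In all 3 the haloperidol mice lay above every olanzapine mouse. Of 83 ribosomal protein genes 80 were above 0 with a median of 0.24 (0.10 to 0.30 over 25 alternatives), including Rpl28 (1299 to 1492 CPM against 814.8 to 1178 CPM; 0.49 ± 0.19) and Rpl14 (0.42 ± 0.19). Gpx1, a glutathione peroxidase, was at 0.46 ± 0.20, among 8 of 9 oxidative stress genes above 0.

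In the myelin-gene class Tacc1, a microtubule-associated protein at chr8:25154552-25256424, had the smallest p, with 108.2, 189.5 and 118.1 CPM in haloperidol 1, 3 and 4 and 43.76, 55.5, 56.71 and 43.17 CPM in olanzapine 2 to 5 (1.52 ± 0.39, 95% interval 0.72 to 2.32; adjusted p = 0.791). Rcan2, a calcineurin regulator, had 351.8, 597.5 and 458.5 CPM against 160.7 to 310.8 CPM (1.20 ± 0.33). Both groups of mice were apart at these genes, as at 6.03% of genes in the class. Gnai1, an inhibitory G protein subunit (-1.03 ± 0.30), and Elovl7, a fatty acid elongase (-1.34 ± 0.39), were on the other side with overlap at olanzapine 5. Of 16 myelin structure genes 12 were below 0 (median -0.24, -0.34 to -0.13), with Ugt8a, which makes the lipid galactosylceramide, at -0.68 ± 0.26, transferrin (Trf) at -0.77 ± 0.39, Mag at -0.81 ± 0.49 and Mobp at 0.36 ± 0.22. Proteasome subunits were below 0 in 22 of 28 genes (median -0.30), with Psma2 at 81.18, 179.8 and 152.8 CPM against 224.5 to 340.3 CPM (-0.86 ± 0.29) and Psmc2 at -1.003 ± 0.38.

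Neuronal markers varied with some of these estimates. Dopamine-signalling genes in the myelin-gene class were above 0 in 6 of 7, led by Arpp21, a phosphoprotein of projection neurons, at 0, 102 and 208.4 CPM with haloperidol and 0, 11.1, 47.26 and 43.17 CPM with olanzapine (2.18 ± 0.63). Their median was 0.82, but 0.07 without the highest Scrublet scores, 0.27 with a minimum of 5 cells and 0.44 with the 10 drug mice alone. Foxp1 was at 0.94 ± 0.43. Summed markers of neurons in the same class were 23.11, 567.8 and 797.6 CPM in the haloperidol mice and 37.24 to 141.4 CPM in the olanzapine mice, with the order of mice as for Arpp21 in the haloperidol group, and their part in these values was not tested.

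The precursor-gene class had Pcbp4, an RNA-binding protein at chr9:106452982-106464012, with 459.2, 337.2, 228.3 and 335.1 CPM in haloperidol 1, 3, 4 and 5 and 129.5, 116.1 and 158.2 CPM in olanzapine 3, 4 and 5 (1.25 ± 0.31, 95% interval 0.61 to 1.88; adjusted p = 0.786). Reep3, an endoplasmic reticulum shaping protein (1.44 ± 0.38), and Ccdc85b (1.69 ± 0.48) were also higher in every haloperidol mouse. Fzd9, a Wnt receptor, was lower in every haloperidol mouse, with 30.44 to 121.1 CPM against 130.3 to 294.8 CPM (-1.59 ± 0.44). Such non-overlap met 4.22% of genes in the class. Genes that define precursors were split 8 above and 7 below 0, with Tnr, an extracellular matrix protein, at 0.31 ± 0.22, Gpr17, a receptor of differentiating precursors, at 0.28 ± 0.25 (-0.06 with a minimum of 5 cells) and Matn4 at -0.38 ± 0.22. All 8 tested myelin genes were above 0 (median 0.65), but Cnp stood at 1729 CPM in haloperidol 3 and at 328 to 551.6 CPM in all other drug mice, and without haloperidol 3 the median was -0.16 and Cnp was at -0.16. Mature myelin markers summed to 5791 CPM in that mouse and to 345.5 to 2702 CPM in the others. Tspan2 and Fa2h, further myelin genes, were at 0.85 ± 0.43 and 0.76 ± 0.46.

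The vascular class showed lower haloperidol estimates for stress-inducible chaperones and AP-1 genes. Hspa1a, the inducible HSP70 at chr17:34969359-34972156, measured 280.8, 269.7, 136.8 and 88.51 CPM in haloperidol 2 to 5 and 528.8, 670.1, 791.9 and 292.6 CPM in olanzapine 2 to 5. All haloperidol mice were below all olanzapine mice, which held for 2.51% of genes in either order (-1.46 ± 0.44, 95% interval -2.39 to -0.53; adjusted p = 0.999), and the placebo mean was 223.8 CPM. Without a filter on low counts Hspa1a passed at an edgeR adjusted p of 0.0111, although its log2 difference hardly moved (-1.48), so the call depends on the filter. Hspb1, the small heat shock protein HSP27, was also lower in every haloperidol mouse (413.1 to 1687 CPM against 1756 to 2147 CPM; -0.77 ± 0.27), and Hsp90aa1 and Hsp90ab1 were at -0.64 ± 0.26 and -0.46 ± 0.19. The mean log2 CPM of the 12 tested heat shock genes was 7.755 to 8.575 with haloperidol and 8.612 to 9.055 with olanzapine. It was 7.983 to 8.712 with placebo. The gap between the drugs was narrow and was not tested, and many lists were scored in this class. Fosb, an AP-1 subunit, had 112.3, 187.6, 114 and 118 CPM against 408.6, 433.4, 384.6 and 146.3 CPM (-1.22 ± 0.34), with olanzapine 5 within the haloperidol range. Egr1, Jun and Fos were at -0.99 ± 0.28, -0.67 ± 0.25 and -0.65 ± 0.27, and 9 of 12 immediate early genes were below 0 (median -0.34, -0.67 to -0.19). Markers of indirect-pathway neurons in this class summed to 61.36 to 103.9 CPM with haloperidol and 116.1 to 164.3 CPM with olanzapine, without overlap. Their part in these values was not tested, and the other marker sets summed in the vascular class overlapped.

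Genes of vessel wall cells were examined in the same class. Vwf, the von Willebrand factor of endothelium, measured 308.9, 222.8, 125.4 and 147.5 CPM with haloperidol and 0, 116.4, 90.51 and 86.07 CPM with olanzapine, without overlap and below the placebo mean of 411.2 CPM in both (1.15 ± 0.44). Tmsb10, an actin-binding peptide, averaged 1474 ± 422.7 CPM (SD, n = 4) and 1355 ± 347.4 CPM (n = 4) beside 3280 CPM in placebo mice, and the difference between the drugs was 0.14 (95% interval -0.33 to 0.62). These genes, with Slc38a5, an amino acid transporter (0.57 ± 0.42), and the contractile or cytoskeletal genes Csrp1 (-0.57 ± 0.30), Lmod1 (-0.51 ± 0.42), Myl9 (-0.35 ± 0.32), Filip1l (-0.49 ± 0.39), Ptk2 (-0.42 ± 0.30) and the estrogen receptor Gper1 (-0.40 ± 0.30), had been chosen from an earlier drug and placebo comparison of these mice. Csrp1 turned to 0.23 without the highest Scrublet scores and Myl9 to 0.08 with a minimum of 5 cells. Of the pericyte genes 9 of 10 were below 0 (median -0.27, -0.50 to -0.09), with Vtn at -0.70 ± 0.44, and of the smooth muscle genes 8 of 11 (median -0.26). The smooth muscle median turned to 0.21 without the highest Scrublet scores, 0.13 without olanzapine 3 and 0.08 with a minimum of 5 cells, and reached -0.62 without the 4 mice numbered 1 to 4. Summed smooth muscle markers were 4521 to 7604 CPM with haloperidol and 909 to 10240 CPM with olanzapine, lowest in olanzapine 2. In such sums fewer cells of a type and less RNA per cell cannot be told apart. Endothelial and barrier genes were split 8 above and 14 below 0. Paqr5, a membrane progestin receptor, had the smallest p, with 236 to 433.1 CPM against 168.2 to 216.7 CPM (0.95 ± 0.26), and Serpine2, a protease inhibitor, was at -1.41 ± 0.40.

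Neuroblasts are young neurons that carry Dcx and Sox11, and some of these cells divide. Beside Hspa5, estimates were below 0 for Cct8, a subunit of the cytosolic chaperonin (103.8 to 245.1 CPM with haloperidol and 264.3 to 371.4 CPM with olanzapine; -0.69 ± 0.21), and Ezr, which links actin to the membrane (92.39 to 214.9 CPM and 231.6 to 375.7 CPM; -0.94 ± 0.29), both without overlap, which 1.25% of genes showed. Tmem55b, a lysosomal membrane protein, was on the other side (1.08 ± 0.31). Proteasome subunits were below 0 in 27 of 31 genes (median -0.20), with Psmd6 at -0.66 ± 0.29, and lysosomal genes in 13 of 17, with the protease Ctsd at -0.998 ± 0.39. Cell cycle genes were below 0 in 11 of 16 (median -0.22, 0.03 without olanzapine 5), with the replication clamp Pcna at -0.60 ± 0.28 and the cyclin Ccnb1 at -0.51 ± 0.43. Differentiation genes were split 9 above and 8 below 0, with Sox11 at 0.19 ± 0.17 and Tubb3 at -0.30 ± 0.21.

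In astrocytes, the class with the most cells (1117 in the drug mice), Zfc3h1, a nuclear RNA decay factor at chr10:115384799-115432772, had the smallest p. It measured 73.94, 34.73, 40.62, 45.66 and 61.33 CPM with haloperidol and 0, 0, 23.12, 16.88 and 15.43 CPM with olanzapine (1.37 ± 0.39, 95% interval 0.59 to 2.15; adjusted p = 0.9996). Every haloperidol mouse was higher, as in one order or the other for 0.637% of genes, and olanzapine 1 and 2, both at 0, were small libraries of 15 and 16 astrocytes. The gene 5031439G07Rik was likewise apart (46.3 to 74.96 CPM against 0 to 39.67 CPM; 1.09 ± 0.32). Lrrc8a, a subunit of the volume-regulated anion channel, was at 0.96 ± 0.27 and Klf13, a transcription factor, at 1.34 ± 0.41, with overlap. Of 16 transporter and gap junction genes 12 were above 0 (median 0.10), with the connexin Gjb6 at 0.31. Gfap, an intermediate filament that reactive astrocytes express, ranged from 6.815 to 104.2 CPM with haloperidol and from 0 to 149.5 CPM with olanzapine (1.33 ± 0.74), and Vim was at 0.65 ± 0.48.

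Ribosomal and mitochondrial genes leaned in 1 direction in several classes. Ribosomal protein genes were above 0 in 71 of 83 in neuroblasts (median 0.11), 80 of 82 in the myelin-gene class (0.24) and 66 of 83 in the precursor-gene class (0.11, -0.005 without olanzapine 3), beside microglia as given. In neurons 67 of 81 were below 0 (median -0.10), with Rpl5 at -0.44 ± 0.24, and the median was 0.05 without haloperidol 2. All 12 mitochondrially encoded genes were above 0 in neuroblasts (median 0.28, mt-Nd2 at 0.59 ± 0.22), all 13 in the myelin-gene class (0.28, mt-Nd1 at 0.46 ± 0.20 and mt-Nd4l at 0.82 ± 0.32) and all 12 in the precursor-gene class (0.18, -0.05 with a minimum of 5 cells). In microglia 6 of 12 and in neurons 4 of 13 were above 0. Members of these lists are counted from the same mice and their estimates are not independent.

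**Figure D5:**
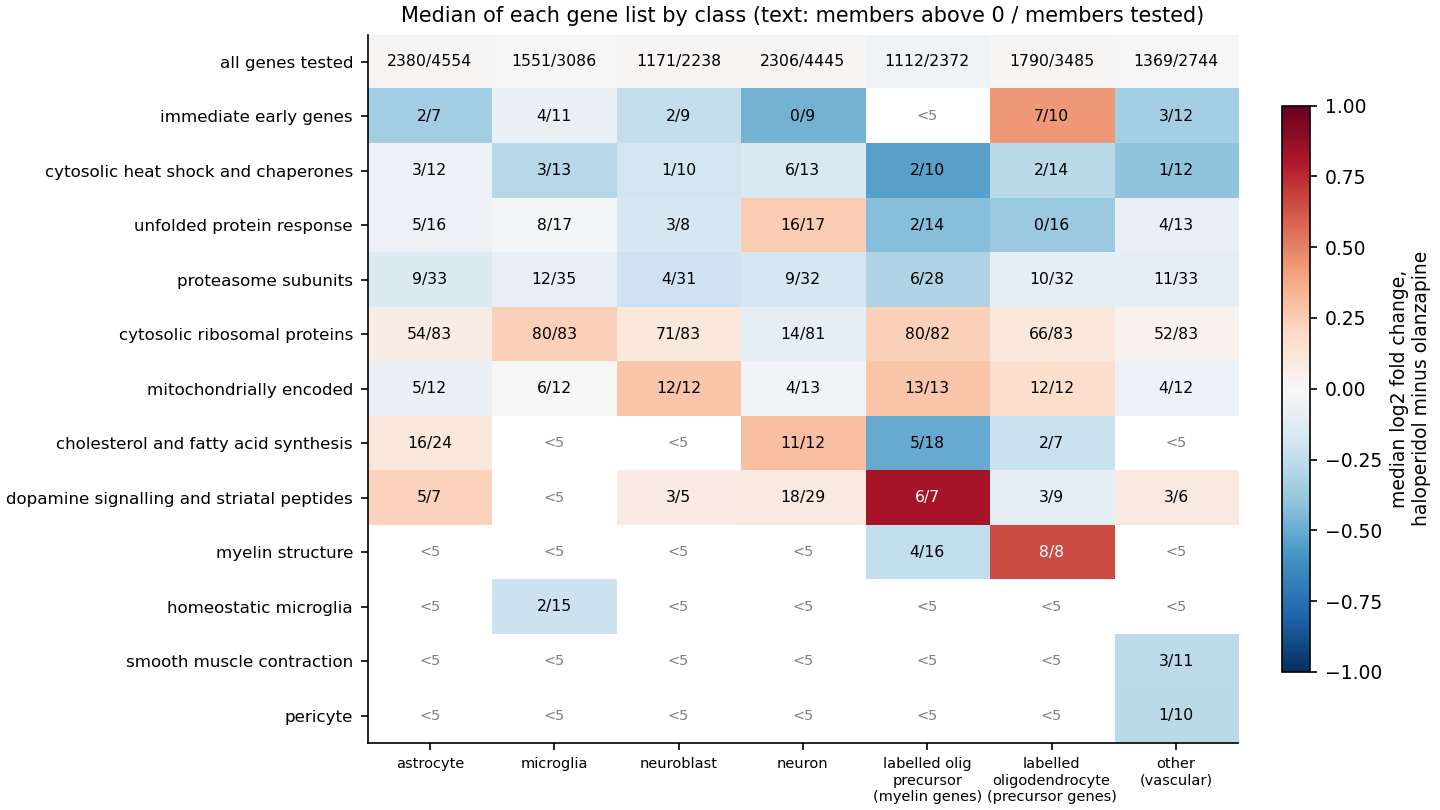
Median log2 fold change, haloperidol minus olanzapine, of each gene list (rows) in each class (columns), where red is above 0 and blue below 0, the text gives members above 0 over members tested, and lists with under 5 tested members are uncoloured and marked <5. Cytosolic heat shock genes are below 0 by median in all 7 classes, and unfolded protein response genes are above 0 in neurons (16 of 17) and below 0 in the precursor-gene class (0 of 16 above).

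With all cells of a mouse summed, which does not use the class labels, 0 of 11005 genes passed. At an unadjusted p under 0.05 there were 2.76%, and 0.336% did not overlap. The gene with the smallest p was Tlr2, at 5.34 ± 2.12 CPM (SD, n = 5) in haloperidol and 17.4 ± 10.6 CPM (n = 5) in olanzapine mice (log2 difference -1.64 ± 0.48, adjusted p = 0.9998). Rgs2 stood at 117.1 ± 30.2 and 225.3 ± 118 CPM (-0.92 ± 0.29), and Hspa8 and Hspa5 at -0.47 ± 0.24 and -0.43 ± 0.26. The share of microglia was 11.64% and 18.26% in the same groups, and its part in the values of Tlr2 and Rgs2 was not tested.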

How the data were processed

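Single cells of mouse striatum were barcoded on a 10x Chromium instrument with the version 2 3′ kit, 1 well per mouse, per the labels. The authors deposited raw UMI counts per gene and cell in 1 table (15932 genes, 5581 cells) with each cell's animal, drug and class. The submitters' processing notes name Cell Ranger, Seurat and mm10, and their versions, cell filters and doublet handling are not stated in the sources used here. Every deposited cell had at least 501 genes, and all were kept. Scrublet (scanpy 1.11.5, with exact neighbours) called 81 cells as doublets, 38 of them among the 128 cells of olanzapine 2 at a threshold of 0.0355, so its calls served only as an alternative.

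Counts were summed per mouse and class (10 or more cells) and fitted in edgeR 4.0.16 with all 15 mice: filterByExpr, TMM scaling, robust quasi-likelihood F test of haloperidol minus olanzapine, two-sided, Benjamini-Hochberg adjustment within a class, threshold 0.05. Every adjusted p of a gene in the text is from this fit unless DESeq2 (1.42.0) is named. The script was tested on simulated counts. Per-mouse CPM of tested genes are over the UMIs of the genes that passed the filter, after TMM scaling. Marker CPM, single or summed, are over all UMIs of the sum, so the scales differ. The error of a CPM value covers the spread between mice. Shares of cells were compared by exact permutation over the 5 and 5 mice. Leaving out each of 15 mice, other filters, scalings and cell sets were the alternatives. Promoter sequences were matched by symbol to RefSeq's table of 32851 promoters, in which all 6 genes searched were found.

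The members and gene lists were chosen with earlier results of these data known. In each class the text takes its genes from the 4 of smallest p at a mean log2 CPM of 5 or more, from up to 4 members of each list described, and in neurons from all tested drug receptors and immediate early genes and 7 striatal markers. Some of these genes are not reported here. A list was described with 5 or more tested members of which 75% or more lay on 1 side of 0, or where it belongs to the class or to drug targets. Lists are given by counts and medians, with no test of the list.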

Additional observations from a re-analysis of the deposited data

Results flagged for a closer look

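Of 290 groups of 4 or 5 mice checked, 20 held 1 mouse set apart from the others of its group by most of the group's range, where chance gives about 1 in 20 groups. Several were mice with few cells. In neurons of haloperidol 2 (16 cells), Hrh3 and Pdyn were both low at 20.47 CPM, Junb was high at 378.8 CPM, and the drug receptors had a mean log2 CPM of 6.12. Gria1 was high in haloperidol 1 (595.3 CPM) and olanzapine 1 (918.7 CPM), and Jun in olanzapine 3 (219.1 CPM). The unfolded protein response genes of neurons had a mean log2 CPM of 7.076 in haloperidol 5 and 7.18 in olanzapine 3.

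In the vascular class, olanzapine 2 (12 cells) had Lmod1 at 0 CPM and a mean log2 CPM of smooth muscle genes of 6.634, and Tmsb10 was low in haloperidol 2 at 842.4 CPM. Fosb there was high in haloperidol 3 (187.6 CPM) and low in olanzapine 5 (146.3 CPM). In the precursor-gene class Cnp was high in haloperidol 3 (1729 CPM) and the precursor list low in haloperidol 4 (9.868). In the myelin-gene class Foxp1 was high in olanzapine 5 (94.97 CPM). In astrocytes Gfap was high in olanzapine 2 (149.5 CPM) and Vim in haloperidol 4 (118 CPM), and in microglia Selplg in olanzapine 1 (5259 CPM). Outside the drug mice, 211 cells of placebo 5 shared barcodes with placebo 2 or 3, 210 of them with the same class in both.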

How the results depend on the processing

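Of 201 counts of called genes under the alternatives, 194 were 0. Without a filter on low counts edgeR called 1 gene in astrocytes, 5 in microglia, 5 in neurons, 20 in the myelin-gene class, 1 in the precursor-gene class and 1 in the vascular class. Of these, 2 in neurons (Egr4 among them), 5 in the myelin-gene class (Rcan2 at an adjusted p of 0.0445 and Arpp21 at 0.0277 among them) and Hspa1a in the vascular class had been tested with the filter. Syt1, Pde10a and Ppp1r1b in the myelin-gene class and Meg3 in microglia were among the genes called without the filter. All belong to the marker lists of neurons or projection neurons. The cause was not tested. Leaving out each mouse in turn gave 0 to 1 genes in the myelin-gene class, the 1 being Hspa8 without olanzapine 5, and 0 in the other classes.

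The difference in share, in percentage points, changed sign without the 4 mice numbered 1 to 4 in astrocytes (-0.823), neuroblasts (-0.47) and the myelin-gene class (1.076). Leaving out each mouse gave -0.359 to 2.945 in neuroblasts, -5.301 to 0.3 in neurons and -0.939 to 1.277 in the myelin-gene class. For astrocytes the same range was 1.669 to 6.811 and for microglia -8.809 to -4.945, with no share passing. Without the 4 mice the microglial difference was -2.584.

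Of 124 genes in the text 112 kept 1 sign under every alternative run, as did 28 of 42 list medians. Leaving out some single mouse turned 12 of the 42 medians, and 34 in all turned or moved by over 1.5 times. A minimum of 20 cells could not be fitted in either oligodendrocyte-lineage class, and the mitochondrial limit not in the myelin-gene class. Few mice and, in olanzapine 1 and haloperidol 2, few cells limit the precision. No paired analysis was possible because the labels number the mice 1 to 15 across the groups, so no number is shared.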

Other observations

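Some lists had estimates on opposite sides of 0 in different classes, and others on the same side. Immediate early genes, all 9 below 0 in neurons, were above 0 in 7 of 10 in the precursor-gene class (median log2 difference 0.43) and, as in neurons, below 0 in 5 of 7 in astrocytes (-0.34) and 7 of 9 in neuroblasts (-0.24). Cholesterol and fatty acid synthesis genes, above 0 in 11 of 12 in neurons, were below 0 in 13 of 18 in the myelin-gene class (-0.51) and, as in neurons, above 0 in 16 of 24 in astrocytes (0.11). Proteasome subunits had a median below 0 in all 7 classes, from -0.30 in the myelin-gene class to -0.09 in microglia. No member passed the test, and differences between classes were not tested.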
